A study of Homo sapiens with 6 samples.

Results

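The genes described here encode the receptor and the signalling chain of type I interferon, namely IFNAR1, IFNAR2, TYK2, JAK1, STAT2, IRF1, IRF7, IRF9 and SOCS1. They were chosen as named genes of 1 pathway, and every probe set annotated to 1 of them alone was taken. Of the 9 genes, 8 had such a probe set, and together these had 21 of the 54675 probe sets on the array. No probe set was named STAT2 in the annotation used, so STAT2 has no value here, and a probe set annotated to both RNF31 and IRF9 was left out.

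Expression was measured in NCI-H292, a line from a human mucoepidermoid carcinoma of the lung, kept in DMEM complete medium with serum and with no stated addition of interferon. Cells of the CT45A1 overexpression group carried a stably transfected CT45A1-Venus construct, and cells of the CT45A1 negative group carried the vector Venus alone. Both groups therefore shared the line, the transfection and the fluorescent protein Venus, and the labels do not say whether each group was a clone or a pool. Each group had 3 replicates on 1 array each. Since nothing says that these were separate cultures, p-values measure only the spread between arrays, which may be technical. The question was which transcripts differed when CT45A1, a cancer/testis antigen, was expressed.

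Type I interferons bind a receptor made of the chains IFNAR1 and IFNAR2, whose cytoplasmic tails hold the tyrosine kinases TYK2 and JAK1. The kinases phosphorylate STAT proteins, and STAT2 enters the nucleus with IRF9 as part of the complex ISGF3, which binds the interferon-stimulated response element (ISRE) in the promoters of antiviral genes. Other STAT dimers bind a palindromic element called GAS. IRF1 and IRF7 are transcription factors that are themselves induced by this signalling and drive interferon and antiviral genes, and SOCS1 is an inhibitor of the JAK kinases that closes the loop. Epithelial cells carry the receptor and respond to interferon.

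The values were MAS5 signals, a linear brightness per probe set, scaled by the authors to a common mean. With 3 arrays in each group the precision was limited, and the scaling left the medians of the groups apart. Median signals per array were 79.2 to 83.3 with CT45A1 and 72.6 to 75.6 without it. The brighter CT45 probe set, annotated to 9 CT45 genes, gave 445 to 700.1 with CT45A1 and 1.95 to 23.1 without it, so the arrays matched their labels. Signals of epithelial markers (EPCAM, CDH1, KRT7, KRT8, KRT18 and KRT19) summed to 72915 to 74015 with CT45A1 and 74465 to 81213 without it. All 6 lay above the array median on every array. Of 5 leukocyte markers measured only LAPTM5 did, with summed signals of 749.7 to 946.7 with CT45A1 and 762.5 to 1025 without it. None of 3 plasmacytoid dendritic cell markers did, with sums of 29.5 to 46.3 and 16.3 to 27.6, and none of 4 fibroblast markers did, with sums of 134 to 233 and 114 to 124. Of 4 endothelial markers PECAM1 and CDH5 did, with sums of 374 to 455 and 271 to 345. Their part in the results was not tested. The signal of the actin 3' control over that of its 5' control, which reports on RNA integrity and labelling length, was lower with CT45A1 (1.42, 1.49 and 1.55) than without it (1.70, 1.64 and 1.91).

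Promoter sequences are shown for the pair of genes that rose, IRF9 and TYK2, and for the pair that hold the best known elements of the pathway, IRF1 and SOCS1. RefSeq windows (GRCh38.p14) existed for 7 of the 9 genes, and the 250 bases before the annotated start were searched on both strands. The core of the ISRE was taken as GAAA, any 2 bases, and GAAA again, and the GAS element as TTCNNNGAA, where N is any base. The windows are chr14:24161015-24161264 on the plus strand for IRF9, chr19:10380573-10380822 on the minus strand for TYK2, chr5:132490774-132491023 on the minus strand for IRF1 and chr16:11256205-11256454 on the minus strand for SOCS1. Each is written along its gene from 5' to 3', ending at the base before the start, and capitals mark the matches.
IRF9: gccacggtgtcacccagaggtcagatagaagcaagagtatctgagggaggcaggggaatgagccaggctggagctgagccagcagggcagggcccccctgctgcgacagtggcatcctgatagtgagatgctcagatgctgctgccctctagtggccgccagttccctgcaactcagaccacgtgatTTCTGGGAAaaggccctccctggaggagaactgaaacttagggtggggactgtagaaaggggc
TYK2: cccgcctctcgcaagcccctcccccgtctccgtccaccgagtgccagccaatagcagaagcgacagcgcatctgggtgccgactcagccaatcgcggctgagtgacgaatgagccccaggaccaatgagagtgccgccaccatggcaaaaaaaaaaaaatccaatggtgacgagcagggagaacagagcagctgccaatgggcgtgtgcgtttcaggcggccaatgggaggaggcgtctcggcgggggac
IRF1: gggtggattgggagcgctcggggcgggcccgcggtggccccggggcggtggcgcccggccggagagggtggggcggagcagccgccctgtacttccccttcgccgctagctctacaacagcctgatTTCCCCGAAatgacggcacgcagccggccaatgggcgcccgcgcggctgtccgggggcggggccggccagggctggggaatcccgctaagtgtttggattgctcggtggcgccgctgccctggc
SOCS1: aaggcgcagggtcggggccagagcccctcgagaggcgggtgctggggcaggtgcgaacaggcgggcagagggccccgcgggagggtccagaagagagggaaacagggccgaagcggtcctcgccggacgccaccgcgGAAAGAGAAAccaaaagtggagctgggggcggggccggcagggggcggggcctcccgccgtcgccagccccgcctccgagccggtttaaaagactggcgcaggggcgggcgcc
IRF9 held 1 GAS match, TTCTGGGAA, 63 to 55 bases before the start. IRF1 held 1 GAS match, TTCCCCGAA, 124 to 116 bases before the start, and SOCS1 held 1 ISRE match, GAAAGAGAAA, 113 to 104 bases before it. No window of TYK2, JAK1, IFNAR1 or STAT2 held either motif as spelled. Among all 27305 genes with a window, 3.71% held the ISRE core and 8.09% the GAS element. A match describes letters in a window and says nothing about binding in these cells.

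TYK2 and IRF9 rose with CT45A1, by 1.63-fold and 1.66-fold, and no member fell past the threshold. Differences below are on the log2 scale, overexpression minus negative, from limma fitted to all probe sets bright enough to test, with p-values adjusted over all of them by the Benjamini-Hochberg method and a threshold of 0.05. Of the 21 probe sets 17 entered the test, and the 4 others (3 of SOCS1 and 1 of JAK1) were dimmer than the array median on all arrays. Of the 17, 2 passed, both upward, and 15 did not. Over all 27618 probe sets tested 3.23% passed, 1.89% upward and 1.34% downward. The overexpression arrays lay wholly above the negative ones at 4 of the 17 and wholly below them at 1, against 15.2% and 11.4% of all probe sets tested. The median difference of the 17 was 0.23, with 13 above 0 and 4 below, and that of all probe sets tested was 0.03. An unadjusted p under 0.05 was reached by 4 of the 17 and by 20.7% of all. The counts over these probe sets describe the genes chosen and are not a test of the pathway, and probe sets of 1 gene share their target.

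**Figure D1:**
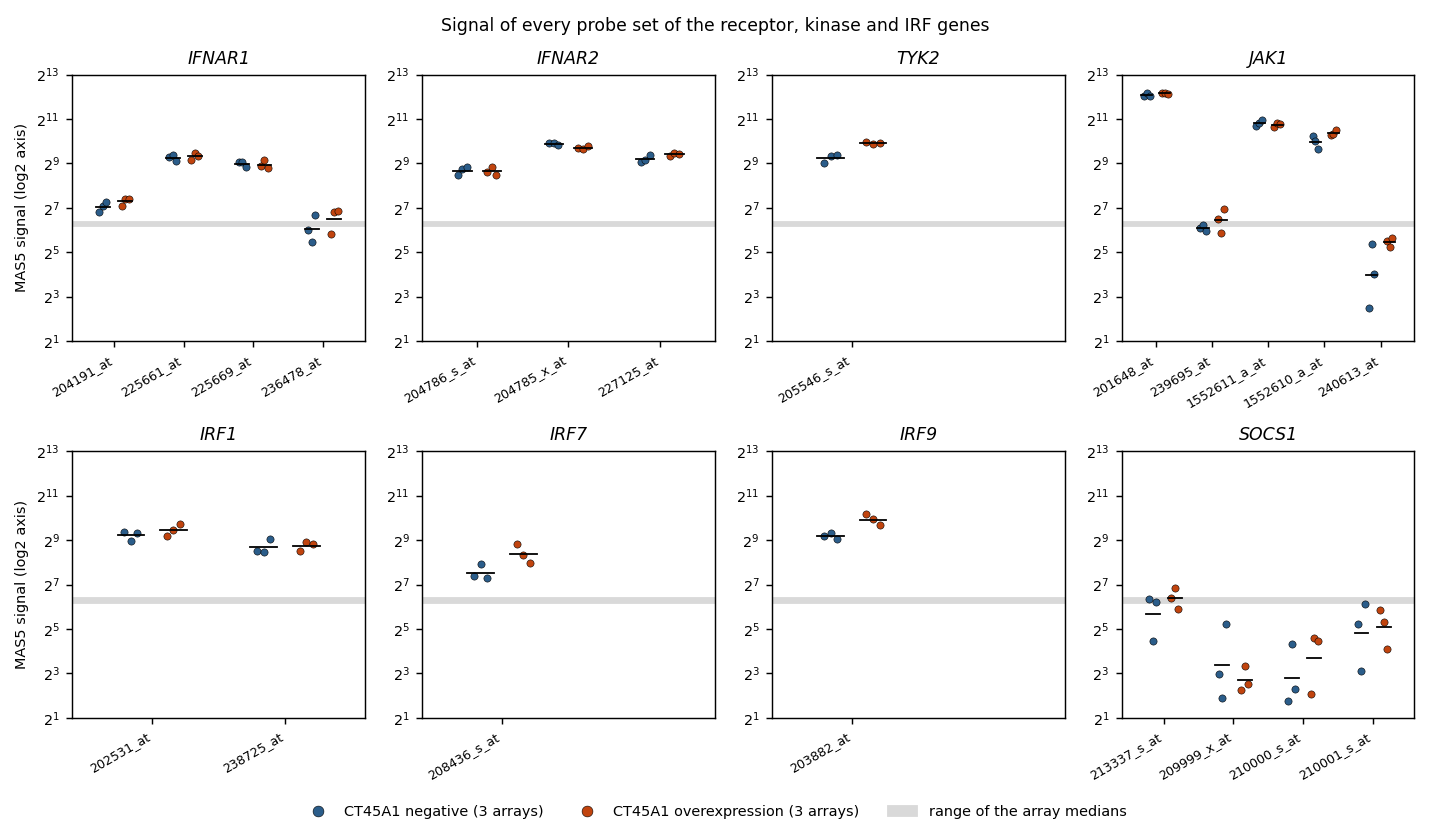
MAS5 signal (log2 axis) of all 21 probe sets, 1 panel a gene, with 3 CT45A1 negative arrays in blue and 3 CT45A1 overexpression arrays in orange; short lines are group means of log2 signal and the grey band spans the array medians of 72.6 to 83.3. The groups stand apart for TYK2 and IRF9, narrowly for IRF7, and overlap for IFNAR1, IRF1 and SOCS1.

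The receptor chains showed no difference past the threshold. IFNAR1, the chain bound by TYK2, had 4 tested probe sets, all with overlapping groups, and 2 of them were brighter than the rest. Its 225661_at gave signals of 569, 709 and 646 with CT45A1 and 625, 658 and 551 without it, a difference of 0.07 (95% interval -0.20 to 0.33). Its 225669_at gave 465, 573 and 440 against 539, 531 and 458, a difference of -0.05 (interval -0.35 to 0.24). The arrays of both groups were interleaved at both, and the intervals span 0. The dimmer 204191_at differed by 0.25 (interval -0.23 to 0.73) with signals of 137 to 169 against 112 to 154. The dimmest, 236478_at, ranged from 55.8 to 115 with CT45A1 and from 44.3 to 101 without it.

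IFNAR2, the chain bound by JAK1, had 3 bright probe sets, none of which passed. Its 204785_x_at was lower on every overexpression array, at 835, 802 and 874 against 958, 978 and 919, by 0.19 on the log2 scale (interval -0.38 to 0.01, limma adjusted p = 0.260). Its 227125_at leaned the other way, at 638, 718 and 692 against 527, 570 and 661, a difference of 0.23 (interval -0.03 to 0.48, limma adjusted p = 0.293), and its groups overlapped by 1 array. The third, 204786_s_at, differed by -0.03 (interval -0.35 to 0.29). IFNAR2 encodes long, short and soluble forms of the chain, and which form each probe set reads was not tested. The log2 ratio of 227125_at to 204785_x_at on the same array was -0.39, -0.16 and -0.34 with CT45A1 and -0.86, -0.78 and -0.47 without it. All overexpression arrays thus lay above all negative ones, by 0.41 on average. The exact permutation test, two-sided, gave p = 0.1, the smallest that 3 against 3 arrays allow, and 0.25 after adjustment over 5 such ratios. These ratios were picked after the values were seen. They do not depend on scaling an array by 1 factor, and only their change between groups can be read, since levels of different probe sets cannot be compared.

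TYK2, the kinase that sits on IFNAR1, rose. Its only probe set, 205546_s_at, gave 1007, 947 and 967 with CT45A1 and 511, 635 and 660.0 without it. The overexpression arrays lay close together and all above the negative ones, with mean log2 signals of 9.93 ± 0.05 and 9.23 ± 0.20 (SD, n = 3). The difference was 0.70 (SE 0.11, interval 0.45 to 0.95), 1.63-fold, with a limma adjusted p of 0.0131. The limma adjusted p was 0.0578 without overexpression replicate 1 and 0.0618 without overexpression replicate 2, at differences of 0.68 and 0.72. Adjusted for the actin ratio, the difference was 0.82 with a wider SE of 0.20 (limma adjusted p = 0.0681). Since that ratio separated the groups, its part in the TYK2 difference cannot be told apart from them.

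JAK1, the kinase on IFNAR2, did not pass at any of its 4 tested probe sets, and these disagreed. The brightest, 201648_at, was nearly level at 4574, 4618 and 4484 with CT45A1 and 4210, 4612 and 4129 without it, a difference of 0.08 (SE 0.07, interval -0.07 to 0.23). In 1552610_a_at the groups stood apart, at 1256, 1286 and 1439 against 1207, 1016 and 807, a difference of 0.41 (interval 0.11 to 0.71, limma adjusted p = 0.126). The third, 1552611_a_at, overlapped at 1595, 1800 and 1727 against 1654, 1823 and 1968, a difference of -0.09 (interval -0.28 to 0.11). Spread in 1552610_a_at came mainly from the negative arrays (SD 0.29 on the log2 scale, against 0.10 with CT45A1). The 239695_at signals straddled the array median at 59.2 to 122 against 61.9 to 75.6, and 240613_at lay under it on all arrays, at 38.3 to 49.5 against 5.69 to 41.2. On the same array the log2 ratio of 1552610_a_at to 1552611_a_at differed by 0.50 between the groups, which overlapped (exact permutation test, two-sided, p = 0.2).

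The kinases could be set against each other in this way. The log2 ratio of TYK2 to the brightest JAK1 probe set was -2.18, -2.29 and -2.21 with CT45A1 and -3.04, -2.86 and -2.65 without it. Every overexpression array lay above every negative one, and the ratio was 0.62 higher on average (exact permutation test, two-sided, p = 0.1, and 0.25 adjusted over the 5 ratios). Leaving out single arrays gave 0.53 to 0.72. This pair was picked after both differences were seen, so the ratio restates those values. JAK1 1552610_a_at, which differed by 0.41, was not set against TYK2.

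**Figure D2:**
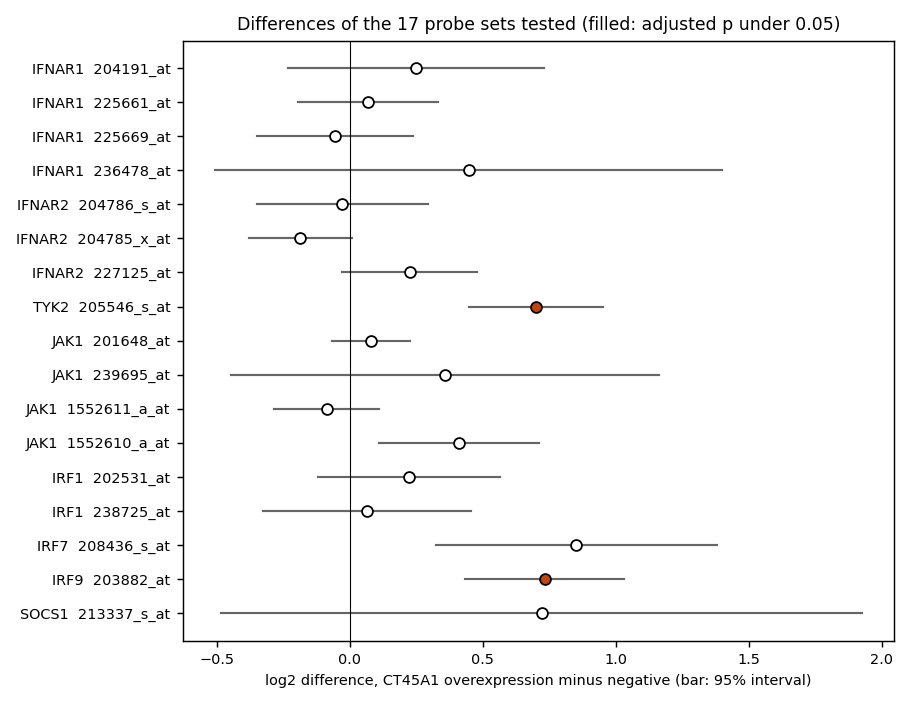
Log2 difference (overexpression minus negative) of the 17 probe sets tested, with bars for 95% intervals from limma and filled points for an adjusted p under 0.05. Only TYK2 at 0.70 and IRF9 at 0.73 are filled, IRF7 lies furthest right at 0.85 with a wider interval, and most others cross 0.

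IRF9, the DNA-binding subunit of ISGF3, rose. Its probe set 203882_at gave 1151, 974 and 821 with CT45A1 and 586, 648 and 528 without it. All overexpression arrays were higher than all negative ones, with means of 9.93 ± 0.24 and 9.19 ± 0.15 (log2, SD, n = 3). The difference was 0.73 (SE 0.13, interval 0.44 to 1.03), 1.66-fold, with a limma adjusted p of 0.0215. Single arrays decided the call, since the limma adjusted p was 0.0767 without overexpression replicate 1, 0.0928 without overexpression replicate 2 and 0.0698 without negative replicate 1, at differences of 0.61 to 0.73. Adjusted for the actin ratio, the difference was 0.30 (limma adjusted p = 0.443). The part of RNA integrity in the rise cannot be told apart from the groups here, because the ratio itself separated them.

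IRF7, the factor that amplifies interferon production, showed the widest difference among the bright members without passing. Its probe set 208436_s_at gave 456, 319 and 253 with CT45A1 and 169, 239 and 155 without it. The groups did not overlap, but the lowest overexpression array was close to the highest negative one. The difference was 0.85 (SE 0.24, interval 0.33 to 1.38, limma adjusted p = 0.0833). Adjusted for the actin ratio, the difference was 0.07 (limma adjusted p = 0.941).

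IRF1, a factor induced through GAS elements, overlapped between the groups at both probe sets. Its 202531_at gave 578, 698 and 843 with CT45A1 and 659, 503 and 643 without it, a difference of 0.22 (interval -0.12 to 0.57, limma adjusted p = 0.444). Its 238725_at gave 362, 480.3 and 448 against 360.3, 356 and 531, a difference of 0.07 (interval -0.33 to 0.46). Adjusted for the actin ratio, the differences were 0.66 at 202531_at and 0.71 at 238725_at (limma adjusted p = 0.175 and 0.137). IRF9 differed by 0.30 in that fit. The log2 ratio of IRF9 to the brighter IRF1 probe set on the same array was 0.995, 0.48 and -0.04 with CT45A1 and -0.17, 0.36 and -0.29 without it. These groups overlapped (exact permutation test, two-sided, p = 0.2). Since the smallest p that 3 against 3 arrays allow is 0.1, this test could not show an unequal change of IRF9 and IRF1. IRF9 and TYK2, by the same measure, differed in their change by 0.03 (exact permutation test, two-sided, p = 0.8), with values from -0.11 to 0.15 when single arrays were left out.

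SOCS1, the inhibitor of the JAK kinases, was dim. Only 213337_s_at entered the test, at 85.0, 115 and 60.5 with CT45A1 and 82.6, 21.8 and 73.2 without it, and its groups overlapped (difference 0.72, interval -0.48 to 1.93, limma adjusted p = 0.481). Its 3 other probe sets lay between 3.38 and 69.4 on all arrays, under the array medians. The interval is too wide to read a direction for SOCS1 at such signals.

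**Figure D3:**
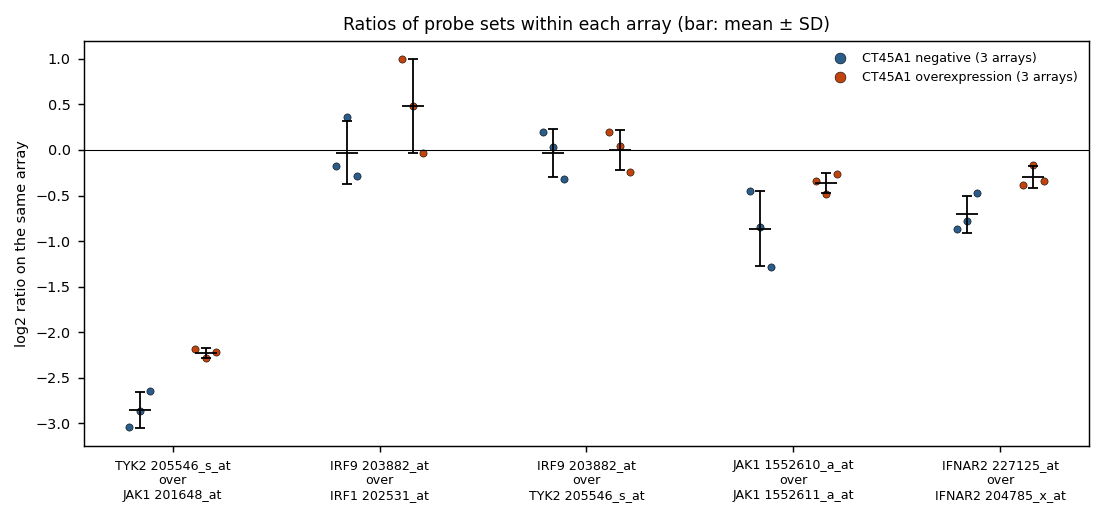
Log2 ratio of a pair of probe sets on the same array, with 3 negative arrays in blue, 3 overexpression arrays in orange, and bars for the mean ± SD. The groups stand apart for TYK2 over JAK1 (0.62 higher with CT45A1) and for the IFNAR2 pair (0.41 higher), and overlap for the other 3 ratios.

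The rest of the pathway was read from lists of related genes, each gene by its brightest tested probe set. Over all 11895 such genes 3.46% passed, 1.77% upward and 1.7% downward, with a median difference of 0.01. Of 21 interferon ligands listed, 18 were on the array and only IFNA17 was bright enough to test, with overlapping signals of 66.2 to 147 and 66.2 to 93.7 (difference 0.22, limma adjusted p = 0.766). None of 8 other class II cytokine receptors passed, and their median was 0.10. The smallest p among them belonged to F3, tissue factor, at -0.31, and to IFNGR1, the ligand-binding chain of the interferon-gamma receptor, at 0.14 (limma adjusted p = 0.259 and 0.445). F3 did pass downward at -0.93 after adjustment for the actin ratio (limma adjusted p = 0.0117) and at -0.31 with the replicate block (limma adjusted p = 0.0178). At another IFNGR1 probe set, 211676_s_at, the groups did not overlap, at 4985, 5381 and 5391 with CT45A1 and 4098, 3265 and 4572 without it. It differed by 0.41 (limma adjusted p = 0.0692), and 242903_at differed by -0.13.

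No relative of the members rose past the threshold. None of 7 other JAKs and STATs passed (median -0.09), and those with the smallest p, STAT5A and STAT3, differed by -0.39 and -0.12 (limma adjusted p = 0.274 and 0.394), and by 0.09 and 0.07 after adjustment for the actin ratio. None of 7 other SOCS family genes passed, with a median of -0.04 and 6 of 7 below 0. SOCS2 and SOCS5 had the smallest p there, at -0.16 and -0.06 (limma adjusted p = 0.261 and 0.775), and SOCS2 passed downward after centring on the array median, at -0.31 (limma adjusted p = 0.0427). Of 6 other IRF genes and IRF2-binding proteins 1 fell and 5 did not pass (median -0.02). That gene was IRF2, a repressor that competes for IRF1 sites, with signals of 481, 449 and 431 with CT45A1 and 592, 622 and 697 without it. Its groups stood apart, and the fall was 0.49 (SE 0.11, limma adjusted p = 0.0432). IRF2 lost the call without each of the 6 arrays in turn, with a limma adjusted p of up to 0.150, at differences that stayed below 0.

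Negative regulators moved both ways. There were 15 tested, of which 2 rose, 1 fell and 12 did not pass, with a median of 0.02. ISG15, a ubiquitin-like protein that stabilises the receptor inhibitor USP18 and is itself an interferon target, rose by 0.94 (limma adjusted p = 0.00621). Adjusted for the actin ratio, ISG15 differed by 0.51 (limma adjusted p = 0.151), and it is also in the list of ISGF3 targets below. PIAS2, a SUMO ligase that binds STATs, rose by 0.62 at its brightest probe set (limma adjusted p = 0.0291), with 0.01 to 0.20 at its 4 others. SKP2, an F-box protein, fell by 0.34 (limma adjusted p = 0.0371) at 1 probe set, with 0.08 and 0.06 at its others. PIAS2 kept the call in 2 and SKP2 in 1 of the 6 fits without single arrays. Among 15 cofactors of STATs and IRFs 1 fell and none rose (median 0.03). It was KPNB1, the importin beta that carries proteins into the nucleus, which fell by 0.29 at its brightest probe set (limma adjusted p = 0.0429). That probe set kept the call in 1 of 6 fits without single arrays. Its 5 other probe sets ranged from -0.42 to -0.01. Of these only 208974_x_at passed, at -0.40 (limma adjusted p = 0.0151).

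Of 11 kinases and adaptors upstream of IRF activation none passed (median -0.04). IRAK1, a kinase of Toll-like receptor signalling, differed by -0.21, and CGAS, the cytosolic DNA sensor, by 1.23 (limma adjusted p = 0.0922 and 0.141). The size for CGAS rested in part on 1 dim negative array, at 259, 229 and 219 against 136, 172 and 42.9, and the groups did not overlap. This probe set differed by 0.62 without negative replicate 3 and by -0.57 after adjustment for the actin ratio. At the other CGAS probe set, 1559051_s_at, the groups did not overlap either, and the difference was 0.35 (limma adjusted p = 0.357). IRAK1 passed downward after centring on the array median, at -0.36 (limma adjusted p = 0.0120).

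Most target genes of ISGF3 rose. Of 27 tested 17 rose and none fell, all 27 differences were above 0, and the median was 0.67. IFI44L rose by 2.13, IFI27 by 1.47, IFIT1 by 1.46 and MX1 by 1.30, and TYK2 and IRF9, at 0.70 and 0.73, lay near the median of the list. After adjustment for the actin ratio IFI44L differed by 0.85, IFI27 by 1.15, IFIT1 by 1.025 and MX1 by 0.67. Among these named targets only IFI27 still passed there (limma adjusted p = 0.0278). The direction of this list was known from earlier results on these arrays and is no independent evidence. It counted 10 risen genes without overexpression replicate 1 or 2, 11 without negative replicate 1, 3 after adjustment for the actin ratio and 0 without the variance trend. The ISRE core was in the window of 11 of the 14 risen targets with a window and of 5 of the 9 others, while neither TYK2 nor IRF9 held it. Genes of the second arm, driven by interferon-gamma and IRF1, numbered 21 tested, and none passed (median 0.13, with 13 above 0 and 8 below). NLRC5, the activator of class I genes, differed by 0.83 and TAP2, of the peptide transporter, by -0.40 (limma adjusted p = 0.0656 and 0.0501), the smallest p in that list. That none passed rests on the setting, since TAP2 passed downward in 7 of 18 alternatives, with a limma adjusted p of 0.0459, 0.0134 and 0.0409 under the 3 scalings. These values are of TAP2 225973_at. Its 204769_s_at and 204770_at differed by -0.25 and 0.18, both with overlapping groups. A difference between the lists was not tested.

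**Figure D4:**
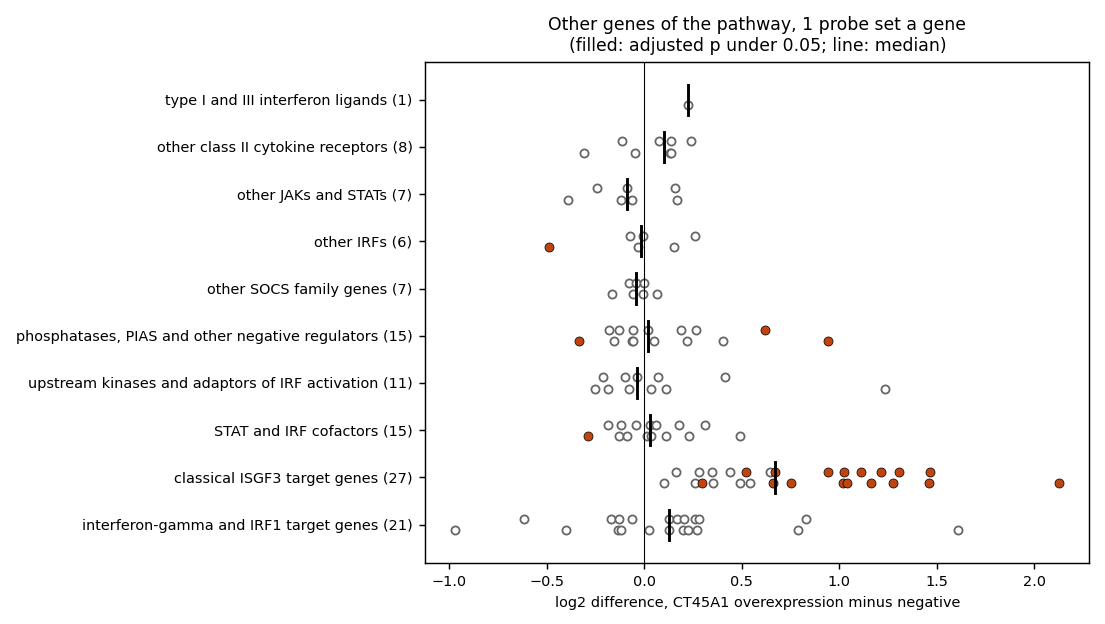
Log2 difference (overexpression minus negative) of each tested gene in 10 lists, with the number tested in brackets, filled points for an adjusted p under 0.05 and a line at the median. The ISGF3 target list lies to the right with a median of 0.67, and the medians of the other 9 lists lie between -0.09 and 0.22.

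Likeness to the members that rose is given as a description, since 6 arrays yield many high correlations. By Pearson correlation of log2 signal over the 6 arrays, which fall in the 2 groups compared, the genes most like IRF9 were OAS2 (r = 0.998), SETDB1 (r = 0.997) and CSGALNACT1 (r = 0.995). OAS2, an antiviral synthetase and interferon target, gave 540, 418 and 324 with CT45A1 and 178, 210 and 138 without it, which is the order of IRF9 on all 6 arrays. Those most like TYK2 were STN1 (r = 0.998), UPF1 (r = 0.998) and SKAP2 (r = 0.996), which differed by 0.42, 0.28 and 0.28. The overexpression arrays were close together in these 3 as in TYK2, which follows from picking them by correlation. The closest matches of IRF9 and of TYK2 had no gene in common, but with 3 named for each this shows no difference between them. UPF1, SKAP2 and SETDB1 did not pass the threshold (limma adjusted p = 0.152, 0.0531 and 0.0764).

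**Figure D5:**
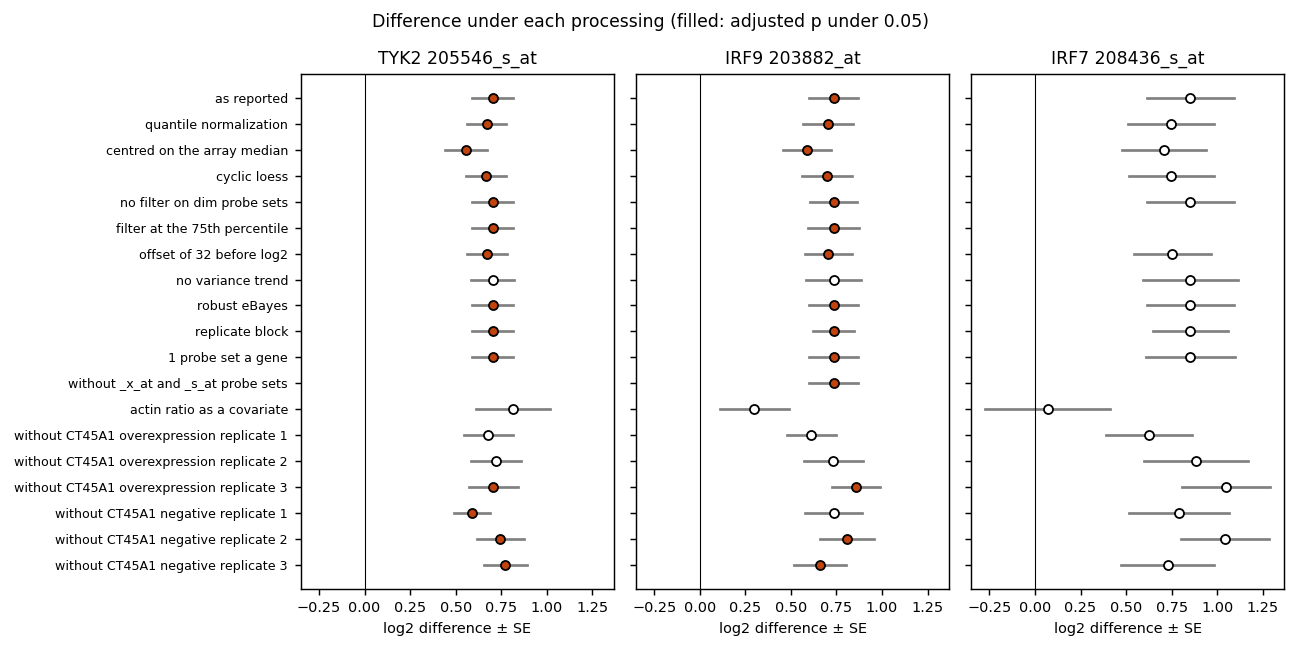
Log2 difference ± SE of TYK2, IRF9 and IRF7 under each way of processing, with filled points for a limma adjusted p under 0.05 and no point where the probe set was not tested. TYK2 stays between 0.56 and 0.82, while IRF9 and IRF7 drop to 0.30 and 0.07 after adjustment for the actin ratio.

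Under the processing alternatives TYK2 and IRF9 stayed above 0 in all 17 and 18 fits they entered and passed in 13 of each. IRF7 stayed above 0 in all 16 and passed in none.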

How the data were processed

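Labels gave 3 arrays per group. The authors deposited 1 MAS5 signal, a linear intensity, for each probe set and array; MAS5 and the package affy are named per the submitters' processing notes, and versions and the genome build are not given in the sources used here. Each array had a 2% trimmed mean of 500.1.

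Signals were taken to log2. Without the 62 control probe sets, the 27618 above the array median on at least 3 arrays were fitted with limma 3.58.1 in R 4.3.3 (group means, eBayes with trend), two-sided, with Benjamini-Hochberg adjustment. The fit was also run on simulated arrays with independent noise for each probe set. These hold no effect shared by an array, so they cannot speak to the actin ratio. In the platform annotation, which can be old, 41091 probe sets had a single gene symbol, 1801 several and 11721 none listed. Symbols were brought up to date by Entrez identifier. From each pathway list the text names up to 4 genes past the threshold, by size, or up to 2 with the smallest p where none passed. For members past it, the 3 genes of highest correlation are named. Members and lists were chosen with earlier results of these data known. Alternatives covered scaling (quantile, array median, cyclic loess), the filter (none, or the 75th percentile), an offset of 32, the variance model (no trend, robust), a block for the replicate number, a single probe set a gene, exclusion of _x_at and _s_at probe sets, adjustment for the actin ratio and omission of each array. Ratios within arrays (scipy 1.17.1) and the CT45 alternatives were chosen after seeing the data.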

Additional observations from a re-analysis of the deposited data

How the results depend on the processing

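The number of member probe sets past the threshold was 2 under the 3 scalings, the 2 other filters, the offset, robust eBayes, a single probe set a gene and the replicate block. It was 0 without the variance trend and 0 after adjustment for the actin ratio. It was 1 when _x_at and _s_at probe sets were excluded, where TYK2 was not tested, and 0 to 2 when single arrays were left out. Pathway genes past it numbered 21, with 0 without the variance trend, 8 adjusted for the actin ratio and 10 to 20 without single arrays. The brighter CT45 difference of 5.93 kept its size without the variance trend (limma adjusted p = 0.0716), was 2.98 adjusted for the actin ratio (limma adjusted p = 0.141) and ranged from 4.83 to 6.62 without single negative arrays; without an overexpression array it was too dim to be tested. Same-numbered arrays deviated together with correlations of -0.01, -0.01 and 0.10, and arrays of unlike number with -0.10 to 0.11. These values show no pairing by number, but cannot exclude one. With the replicate block 2 member probe sets and 24 pathway genes passed. The cause of these moves was not tested.

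Several differences changed sign, none of them past the threshold in either setting. Most were near 0, but STAT5A and CGAS turned from -0.39 and 1.23. Centred on the array median, IFNAR1 225661_at was -0.078, JAK1 201648_at -0.065, IRF1 238725_at -0.080 and IFNGR1 -0.0067. IRF1 238725_at was -0.010 after quantile normalization and -0.0064 after cyclic loess. Adjusted for the actin ratio, IFNAR1 225661_at was -0.059, IFNAR2 204786_s_at 0.065, JAK1 201648_at -0.037, JAK1 1552611_a_at 0.10, IFNA17 -0.51, STAT5A 0.091, STAT3 0.068 and CGAS -0.57. Without single arrays IFNAR1 225661_at ran from -0.0076 to 0.15, IFNAR1 225669_at from -0.17 to 0.023, IFNAR2 204786_s_at from -0.14 to 0.056, IRF1 238725_at from -0.034 to 0.25 and IFNA17 from -0.078 to 0.50. Centring moved the median of all probe sets tested from 0.03 to -0.11, and TYK2 and IRF9 were 0.56 and 0.59 there.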
